A study of Gallus gallus with 6 samples.

Results

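The genes described here build cholesterol and fatty acids in the cell, or set how much of either is built. The list held 33 gene symbols, 16 of enzymes of sterol synthesis, 6 of proteins of its control and 11 of enzymes and a cofactor of fatty acid synthesis and desaturation. By symbol, 30 of the 33 were present among the 24356 genes of the count table, and all 30 passed the filter on low values (a mean FPKM of at least 0.5 over the birds). IDI1 and FADS1 were found by the gene description instead and are given beside the 30 but not counted among them, while EBP was not matched and is not analysed here.

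The study compared jejunal RNA of Korat chickens, a slow-growing hybrid whose sires were Leung Hang Khao, an indigenous Thai line, and whose dams came from the broilers bred at Suranaree University of Technology. FCR, the feed conversion ratio, is feed eaten per unit of weight gained, so a low value is an efficient bird. The low-FCR birds were L1, L2 and L3 and the high-FCR birds were H1, H2 and H3, with 1 library per bird, all 10 weeks old, on the same commercial diets, fasted before sampling and described as males. No treatment or genotype separated the groups, which were picked as the extremes of a ranking by FCR. As FCR combines intake and gain, their parts cannot be told apart here.

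Cholesterol is made from acetyl-CoA through mevalonate, isoprenoids, squalene and lanosterol, and the enzymes from squalene synthase onward sit in the endoplasmic reticulum. In vertebrates their genes are switched on together by SREBP2, and those of fatty acid synthesis mainly by SREBP1. Both factors are held back in the membrane by SCAP and the INSIG proteins when sterols are plentiful. In birds the liver is the main site of fatty acid synthesis, and the small intestine absorbs fat and cholesterol from the diet and also makes sterols of its own.

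Total counts per library ran from 10436038 to 11370043, so the libraries were of near-equal depth, and 3 counts equalled 0.249 to 0.304 CPM (the TMM-normalized count scaled by library size). Genes on chromosome W, carried by female birds, had 16140 counts in L1, where the remaining birds had 48 to 80, and genes on chromosome Z had a median log2 difference of -0.51 in L1 from the other birds, against 0.05 to 0.16 in the rest. The library of L1 thus went against the description of the birds as males, and HMGCS1 and STARD4 are the Z-linked members. L1 also differed in the 28 autosomal members. Of these, 21 were higher in L1 than the mean of the other birds (median log2 difference 0.32). In H1 21 were higher as well (median 0.14). H3 is titled Low-FCR in the deposit but coded as a high-FCR bird, as in the paper, and was treated as high-FCR, and values with it removed or regrouped are given for some of the members that they move. The labelled tissue was checked on markers of intestine and liver, which do not check the segment of the intestine. Of 18 enterocyte markers 15 were found, with summed levels of 7314 to 17803 CPM in low-FCR birds and 3899 to 16658 CPM in high-FCR birds. The 6 hepatocyte markers summed to 7.81 to 21.2 CPM in low-FCR birds and 5.55 to 20.5 CPM in high-FCR birds. Of 6 markers of the distal small intestine 5 were found. They summed to 123 to 4865 CPM in low-FCR birds and 92.6 to 749 CPM in high-FCR birds. In whole tissue, fewer cells of a type and less RNA per cell cannot be told apart.

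No member of the list passed a test for a difference between low-FCR and high-FCR birds. In edgeR's quasi-likelihood test, 0 of the 30 members passed at an adjusted p under 0.05, where 0% of the 14282 tested genes passed, and the adjusted p of every member was 0.997. At an unadjusted p under 0.05 the count was also 0 of 30, against a background of 3.24% of tested genes (2.02% higher and 1.22% lower in low-FCR birds). DESeq2 and limma on log2(FPKM + 0.5) likewise gave 0 members at an unadjusted p under 0.05. By the sign of the log2 FC, taken throughout as low-FCR over high-FCR, 9 members were above 0 and 21 below, where 51.8% of all tested genes were above 0 and 48.2% below. The median log2 FC was -0.09 over the members and 0.02 over all tested genes. The groups of birds did not overlap for 1 member, FASN, where 6.36% of all tested genes had no overlap (2.97% higher and 3.4% lower in low-FCR birds).

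The precision of these comparisons was limited by the spread between birds. The standard error of a member's log2 FC ran from 0.20 to 0.67 with a median of 0.35, and for 19 of the 30 members the log2 FC was smaller than its own standard error. The 95% interval stayed within a 2-fold change in either direction for 15 of the 30, reached a 2-fold lower level in low-FCR birds for 11 and a 2-fold higher one for 5. The highest bird had a median of 2.47 times the level of the lowest over the members and 2.32 times over all tested genes.

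**Figure D1:**
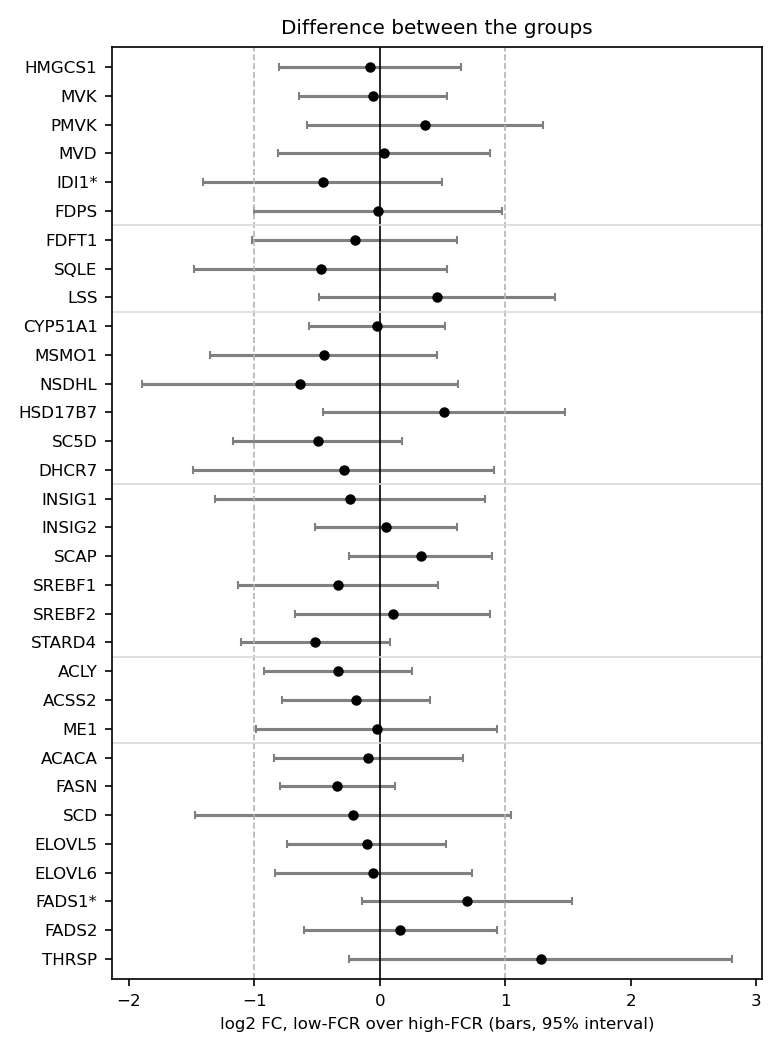
Log2 FC of each gene, low-FCR over high-FCR birds, with its 95% interval from edgeR's quasi-likelihood fit; grey lines separate the roles, dashed lines mark a 2-fold change and an asterisk marks a gene found by its description. Every interval crosses 0, and that of FASN is the narrowest in its role.

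The first enzymes turn acetyl-CoA into isoprenoid units. HMGCS1 (chromosome Z, 13647830 to 13665258 in GRCg6a), the cytosolic HMG-CoA synthase, had 38.1 (L1), 68.1 (L2) and 38.2 (L3) CPM in low-FCR birds, against 54.5 (H1), 61.98 (H2) and 36.3 (H3) CPM in high-FCR birds (log2 FC -0.08, SE 0.32, 95% interval -0.80 to 0.64). The highest and the lowest bird of HMGCS1 thus belonged to different groups, L2 and H3, and the groups overlapped over nearly their whole range. MVK, the kinase that acts on mevalonate, was the most even member, with 18.9 (L1), 21.3 (L2) and 18.8 (L3) CPM in low-FCR birds, against 21.4 (H1), 18.7 (H2) and 21.2 (H3) CPM in high-FCR birds (log2 FC -0.06, SE 0.26, 95% interval -0.65 to 0.54). Its highest bird had 1.15 times the level of its lowest. PMVK, the next kinase, had 52.04 (L1), 17.7 (L2) and 22.3 (L3) CPM in low-FCR birds, against 24.3 (H1), 20.1 (H2) and 27.2 (H3) CPM in high-FCR birds (log2 FC 0.36, SE 0.41, 95% interval -0.58 to 1.30). MVD, the decarboxylase that yields isopentenyl diphosphate, had 34.9 (L1), 14.4 (L2) and 17.6 (L3) CPM in low-FCR birds, against 22.4 (H1), 19.3 (H2) and 23.6 (H3) CPM in high-FCR birds (log2 FC 0.03, SE 0.37, 95% interval -0.81 to 0.87). In both PMVK and MVD, L1 was the highest of all birds and L2 the lowest, so the spread lay within the low-FCR group. IDI1, the isomerase of isopentenyl diphosphate, had 31.7 (L1), 21.8 (L2) and 11.6 (L3) CPM in low-FCR birds, against 37.6 (H1), 33.3 (H2) and 18.3 (H3) CPM in high-FCR birds (log2 FC -0.46, SE 0.42, 95% interval -1.41 to 0.50). FDPS, which joins these units into farnesyl diphosphate, had 83.1 (L1), 37.2 (L2) and 22.6 (L3) CPM in low-FCR birds, against 57.5 (H1), 43.1 (H2) and 43.5 (H3) CPM in high-FCR birds (log2 FC -0.01, SE 0.43, 95% interval -1.001 to 0.97). The near-equal group means of FDPS, 47.6 ± 31.6 CPM in low-FCR birds and 48.0 ± 8.23 CPM in high-FCR birds (SD, n = 3 each), hid a spread in which L1 and L3 were the extremes.

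The committed steps to sterols followed the same pattern of overlap. FDFT1, squalene synthase, had 60.7 (L1), 44.6 (L2) and 38.4 (L3) CPM in low-FCR birds, against 53.9 (H1), 80.4 (H2) and 30.8 (H3) CPM in high-FCR birds (log2 FC -0.20, SE 0.36, 95% interval -1.02 to 0.61). SQLE (chromosome 2, 138683095 to 138697225), the squalene epoxidase and a rate-limiting enzyme of the route, had 23.3 (L1), 16.5 (L2) and 7.31 (L3) CPM in low-FCR birds, against 23.5 (H1), 26.8 (H2) and 14.98 (H3) CPM in high-FCR birds (log2 FC -0.47, SE 0.44, 95% interval -1.48 to 0.54). L3 was the lowest bird of SQLE, and L1 lay level with H1. LSS (chromosome 7, 6913221 to 6923292), which closes the rings to give lanosterol, had 173 (L1), 55.98 (L2) and 80.5 (L3) CPM in low-FCR birds, against 96.8 (H1), 73.1 (H2) and 55.4 (H3) CPM in high-FCR birds (log2 FC 0.46, SE 0.41, 95% interval -0.48 to 1.39). Its higher mean in low-FCR birds rested on L1, since L2 lay beside the lowest bird, H3, and without L1 the log2 FC was -0.14.

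Of the 6 later enzymes that carry lanosterol to cholesterol, 5 had a log2 FC below 0 and none an unadjusted p under 0.05 in edgeR's test. CYP51A1, the lanosterol demethylase, had 91.5 (L1), 76.5 (L2) and 63.9 (L3) CPM in low-FCR birds, against 95.5 (H1), 72.9 (H2) and 67.1 (H3) CPM in high-FCR birds (log2 FC -0.02, SE 0.24, 95% interval -0.57 to 0.52). MSMO1, the C4-methylsterol oxidase, had 70.4 (L1), 73.5 (L2) and 47.2 (L3) CPM in low-FCR birds, against 130 (H1), 89.7 (H2) and 40.5 (H3) CPM in high-FCR birds (log2 FC -0.45, SE 0.40, 95% interval -1.35 to 0.46). H1 and H2 were above all low-FCR birds in MSMO1, whereas H3 was below them all. The log2 FC of MSMO1 was -0.79 once H3 was left out, -0.93 when H3 was counted as a low-FCR bird and -0.86 without both L1 and H3, each at an unadjusted p under 0.05 and none past adjustment in edgeR's test. Without H1, the highest bird, and with H3, the lowest, kept, the log2 FC of MSMO1 was -0.03. The size of the difference thus moved with single birds. NSDHL, a dehydrogenase that acts with MSMO1, was the most spread member, with 16.9 (L1), 17.6 (L2) and 5.49 (L3) CPM in low-FCR birds, against 19.97 (H1), 32.9 (H2) and 9.43 (H3) CPM in high-FCR birds (log2 FC -0.64, SE 0.55, 95% interval -1.90 to 0.62). Its highest bird, H2, had 5.99 times the level of its lowest, L3, and the log2 FC was -0.14 without H2, -0.27 without L3 and -0.99 without H3. HSD17B7, the reductase of the same demethylation step, had 19.8 (L1), 10.98 (L2) and 24.2 (L3) CPM in low-FCR birds, against 12.8 (H1), 18.01 (H2) and 7.76 (H3) CPM in high-FCR birds (log2 FC 0.51, SE 0.42, 95% interval -0.45 to 1.47). SC5D, the sterol C5-desaturase, had 32.6 (L1), 31.96 (L2) and 18.7 (L3) CPM in low-FCR birds, against 45.2 (H1), 40.4 (H2) and 31.8 (H3) CPM in high-FCR birds (log2 FC -0.50, SE 0.30, 95% interval -1.17 to 0.18). In SC5D only H3 reached into the range of the low-FCR birds. DHCR7, which makes cholesterol from 7-dehydrocholesterol, had 20.4 (L1), 16.2 (L2) and 5.58 (L3) CPM in low-FCR birds, against 26.9 (H1), 14.1 (H2) and 10.6 (H3) CPM in high-FCR birds (log2 FC -0.29, SE 0.53, 95% interval -1.49 to 0.91).

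**Figure D2:**
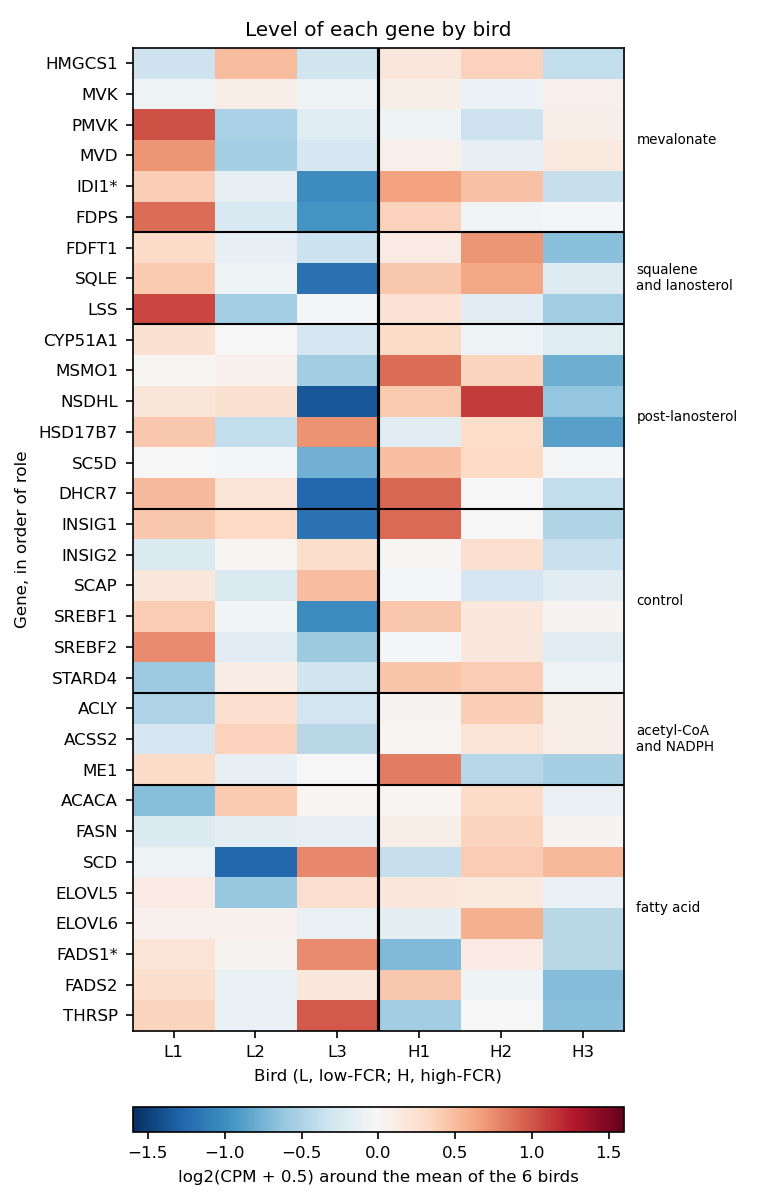
Level of each gene in each bird as log2(CPM + 0.5) around the mean of the 6 birds, low-FCR birds left of the vertical line and high-FCR birds right of it, with genes in order of role and an asterisk for those found by description. The low cells of L3 run through SQLE, NSDHL, DHCR7, INSIG1 and SREBF1, and those of H3 through FDFT1, MSMO1 and HSD17B7.

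The genes of sterol control gave 3 log2 FC above 0 and 3 below. SREBF2 (chromosome 1, 49494257 to 49513013), which encodes SREBP2, had 220 (L1), 114 (L2) and 87.5 (L3) CPM in low-FCR birds, against 129 (H1), 148 (H2) and 116 (H3) CPM in high-FCR birds (log2 FC 0.10, SE 0.34, 95% interval -0.67 to 0.88). SREBF1 (chromosome 14, 5307535 to 5318482), which encodes SREBP1, had 61.3 (L1), 44.8 (L2) and 22.6 (L3) CPM in low-FCR birds, against 62.5 (H1), 51.9 (H2) and 47.7 (H3) CPM in high-FCR birds (log2 FC -0.33, SE 0.35, 95% interval -1.13 to 0.47). The high-FCR birds lay close together in both genes, and the low-FCR birds spread above and below them in SREBF2 and mostly below in SREBF1. SCAP, the escort of both factors to the Golgi, had 59.3 (L1), 44.1 (L2) and 73.4 (L3) CPM in low-FCR birds, against 51.5 (H1), 43.2 (H2) and 46.4 (H3) CPM in high-FCR birds (log2 FC 0.32, SE 0.25, 95% interval -0.24 to 0.89). INSIG1 (chromosome 2, 7910368 to 7918977), which retains SCAP and is itself a target of SREBP, had 118 (L1), 109 (L2) and 38.3 (L3) CPM in low-FCR birds, against 165 (H1), 86.8 (H2) and 62.7 (H3) CPM in high-FCR birds (log2 FC -0.24, SE 0.47, 95% interval -1.32 to 0.84). INSIG2, its relative of like function, had 61.2 (L1), 73.9 (L2) and 87.7 (L3) CPM in low-FCR birds, against 72.8 (H1), 86.6 (H2) and 56.1 (H3) CPM in high-FCR birds (log2 FC 0.05, SE 0.25, 95% interval -0.52 to 0.61). Among the low-FCR birds the order of INSIG2 was thus the reverse of that of INSIG1, with L3 highest in INSIG2 and lowest in INSIG1.

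STARD4 (chromosome Z, 46594962 to 46603606), a carrier of cholesterol between membranes, had the smallest p of the 30 members. It had 40.6 (L1), 66.4 (L2) and 49.003 (L3) CPM in low-FCR birds, against 83.4 (H1), 80.98 (H2) and 58.4 (H3) CPM in high-FCR birds (log2 FC -0.51, SE 0.26, 95% interval -1.11 to 0.082). L2 was above H3, so the groups overlapped by a single pair of birds. The lowest bird was L1, whose Z-linked genes were lower as a whole, and without L1 the log2 FC was -0.37. It was -0.75 without L2 (adjusted p = 0.442 in edgeR's test) and -0.62 when H3 was counted as a low-FCR bird (adjusted p = 0.9999), both at an unadjusted p under 0.05. HMGCS1, the other Z-linked member, had a log2 FC of 0.06 without L1.

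Fatty acid synthesis begins with the supply of acetyl-CoA and NADPH. ACLY, which splits citrate into acetyl-CoA, had 47.3 (L1), 80.4 (L2) and 53.9 (L3) CPM in low-FCR birds, against 68.9 (H1), 88.3 (H2) and 71.2 (H3) CPM in high-FCR birds (log2 FC -0.33, SE 0.26, 95% interval -0.92 to 0.26). Only L2 reached the range of the high-FCR birds, and without L2 the log2 FC of ACLY was -0.61 (unadjusted p under 0.05, adjusted p = 0.476 in edgeR's test), whereas without L1 it was -0.18. ACSS2, which makes acetyl-CoA from acetate, had 53.9 (L1), 83.6 (L2) and 47.4 (L3) CPM in low-FCR birds, against 66.4 (H1), 75.01 (H2) and 69.6 (H3) CPM in high-FCR birds (log2 FC -0.19, SE 0.26, 95% interval -0.78 to 0.40). L1 and L3 were below and L2 above every high-FCR bird in ACSS2. ME1, the malic enzyme that yields NADPH, had 21.1 (L1), 15.4 (L2) and 16.9 (L3) CPM in low-FCR birds, against 30.5 (H1), 12.3 (H2) and 11.6 (H3) CPM in high-FCR birds (log2 FC -0.03, SE 0.42, 95% interval -0.98 to 0.93). For ME1 the high-FCR birds enclosed the low-FCR birds on both sides.

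FASN (chromosome 18, 4912089 to 4948124), the fatty acid synthase, was the only member whose groups did not overlap. It had 66.4 (L1), 69.9 (L2) and 70.2 (L3) CPM in low-FCR birds, against 82.4 (H1), 99.3 (H2) and 79.4 (H3) CPM in high-FCR birds (log2 FC -0.34, SE 0.20, 95% interval -0.80 to 0.12). The means were 68.9 ± 2.09 CPM in low-FCR birds and 87.0 ± 10.7 CPM in high-FCR birds (SD, n = 3 each), a difference that did not pass the test. The enzyme before it, ACACA, which makes malonyl-CoA, had 15.8 (L1), 34.6 (L2) and 26.3 (L3) CPM in low-FCR birds, against 26.3 (H1), 31.8 (H2) and 23.7 (H3) CPM in high-FCR birds (log2 FC -0.09, SE 0.33, 95% interval -0.84 to 0.66). In ACACA the low-FCR birds held both the lowest and the highest value. THRSP, a small protein tied to lipogenesis in liver and fat, was the lowest member, with 14 (L1), 10 (L2) and 27 (L3) counts in low-FCR birds, against 6 (H1), 12 (H2) and 5 (H3) counts in high-FCR birds. Its mean was 1.59 ± 0.802 CPM in low-FCR birds and 0.653 ± 0.299 CPM in high-FCR birds (SD, n = 3 each), with a log2 FC of 1.28 (SE 0.67, 95% interval -0.24 to 2.81) that rested on few reads.

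Desaturases and elongases then shape the chains. SCD, the stearoyl-CoA desaturase, had 7.10 (L1), 2.86 (L2) and 13.3 (L3) CPM in low-FCR birds, against 5.75 (H1), 10.1 (H2) and 11.1 (H3) CPM in high-FCR birds (log2 FC -0.22, SE 0.55, 95% interval -1.48 to 1.04). L3 and L2 were its highest and lowest birds, so that here too the low-FCR group spanned the high-FCR group. ELOVL6, which elongates saturated chains, had 17.04 (L1), 17.1 (L2) and 14.99 (L3) CPM in low-FCR birds, against 14.6 (H1), 24.5 (H2) and 11.8 (H3) CPM in high-FCR birds (log2 FC -0.05, SE 0.34, 95% interval -0.84 to 0.73). A gene on the opposite strand covers 65085 bases of ELOVL6 with a mean of 112 counts, and as the strand setting of the counting is not given in the sources used here, the reads of both may not be told apart. ELOVL5, the elongase of polyunsaturated chains, had 49.2 (L1), 29.4 (L2) and 54.1 (L3) CPM in low-FCR birds, against 50.7 (H1), 50.2 (H2) and 41.8 (H3) CPM in high-FCR birds (log2 FC -0.11, SE 0.28, 95% interval -0.74 to 0.53). FADS2, the Δ6-desaturase, had 28.1 (L1), 21.2 (L2) and 25.96 (L3) CPM in low-FCR birds, against 31.2 (H1), 21.9 (H2) and 14.1 (H3) CPM in high-FCR birds (log2 FC 0.16, SE 0.34, 95% interval -0.60 to 0.93). Its neighbour on chromosome 5, FADS1, the Δ5-desaturase, had 14.6 (L1), 12.9 (L2) and 21.5 (L3) CPM in low-FCR birds, against 7.50 (H1), 13.7 (H2) and 9.08 (H3) CPM in high-FCR birds (log2 FC 0.69, SE 0.37, 95% interval -0.14 to 1.53). H2 alone reached into the low-FCR range of FADS1, and without H2 the log2 FC was 0.98 (unadjusted p under 0.05, adjusted p = 0.9999 in edgeR's test), whereas without L3 it was 0.44.

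**Figure D3:**
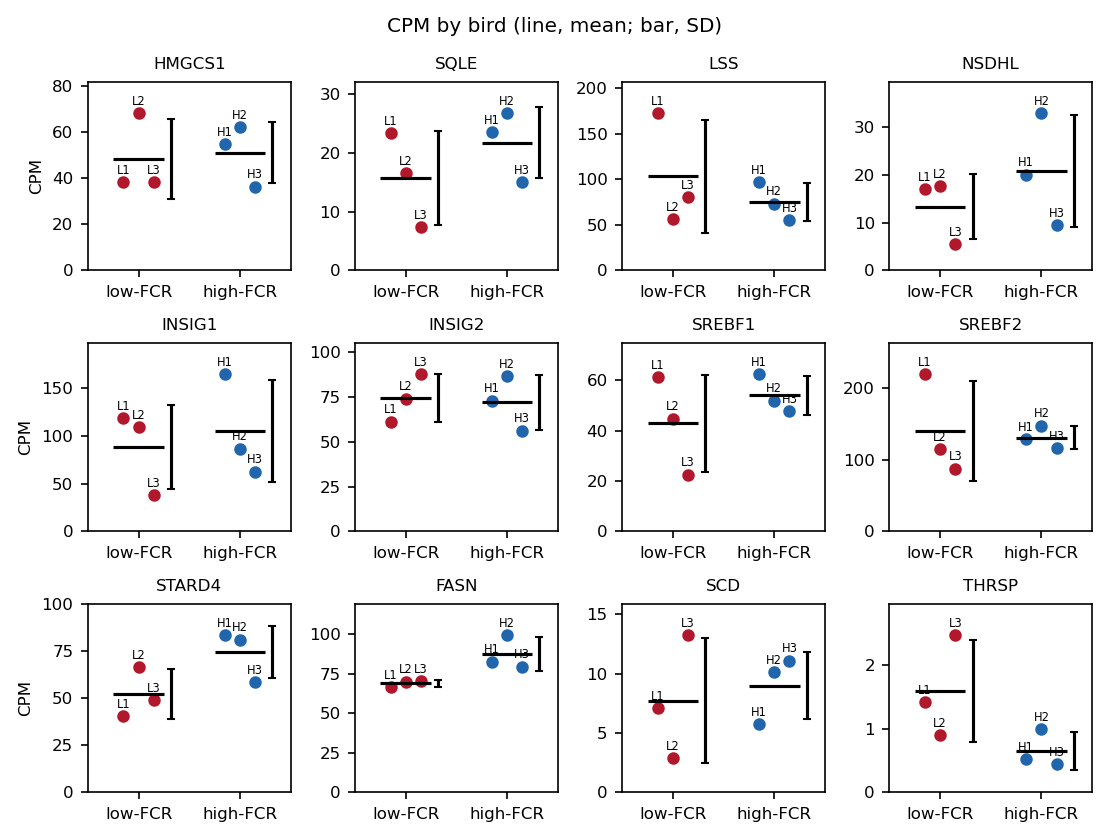
CPM in each bird for 12 genes of the list, low-FCR birds at the left and high-FCR birds at the right of each panel, with the group mean (line) and SD (bar). The 3 low-FCR birds of FASN sit between 66.4 and 70.2 CPM, below all high-FCR birds, while in the other 11 genes the groups overlap.

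The members also varied by bird within each group. H1 was the highest bird in 10 of the 30 members (33.3%, against 10.5% of all tested genes) and the lowest in 0. H3 was the lowest in 10 (33.3%, against 12.98% of all tested genes) and the highest in 0. L3 was the lowest in 10 as well (against 20.9% of all tested genes), but also the highest in 6. The low values of L3 were mostly those of sterol synthesis and its control. Its level differed from the mean of the other birds by -1.62 in NSDHL, -1.51 in DHCR7, -1.43 in SQLE, -1.42 in INSIG1 and -1.22 in SREBF1, on the log2(CPM + 0.5) scale. Of the 6 members highest in L3, 3 were fatty acid genes (SCD, ELOVL5 and THRSP), 2 control genes (SCAP and INSIG2) and 1 a sterol synthesis gene (HSD17B7). Its level differed from the mean of the other birds by 1.18 in THRSP, 0.93 in SCD, 0.86 in HSD17B7 and 0.59 in SCAP on the same scale.

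The 14 sterol synthesis genes had an average level, relative to the mean over birds, of 0.39 (L1), -0.10 (L2) and -0.49 (L3) in low-FCR birds, against 0.31 (H1), 0.21 (H2) and -0.31 (H3) in high-FCR birds, on the log2(CPM + 0.5) scale. The 6 control genes gave 0.16 (L1), 0.00 (L2) and -0.38 (L3) in low-FCR birds, against 0.30 (H1), 0.12 (H2) and -0.20 (H3) in high-FCR birds. On both averages 1 bird of each group, L3 and H3, was low. The 10 fatty acid genes gave -0.06 (L1), -0.12 (L2) and 0.12 (L3) in low-FCR birds, against 0.06 (H1), 0.19 (H2) and -0.18 (H3) in high-FCR birds. The marker lists of cell types varied by bird as well. The 15 enterocyte markers averaged 0.72 (L1), 0.80 (L2) and -0.44 (L3) in low-FCR birds, against 0.96 (H1), -0.52 (H2) and -1.53 (H3) in high-FCR birds, on the same scale. The same birds L3 and H3 were thus low in enterocyte markers, as was H2, in which sterol synthesis was not low. The 10 markers of dividing crypt cells averaged -0.20 (L1), 0.24 (L2) and -0.56 (L3) in low-FCR birds, against -0.31 (H1), 0.43 (H2) and 0.40 (H3) in high-FCR birds. The 5 markers of the distal small intestine averaged 1.66 (L1), -1.54 (L2) and 0.82 (L3) in low-FCR birds, against 0.17 (H1), 0.10 (H2) and -1.20 (H3) in high-FCR birds, so the birds did not share a level of these either. The 7 smooth muscle markers averaged 1.10 (L1), -0.84 (L2) and -0.23 (L3) in low-FCR birds. In high-FCR birds they averaged 0.62 (H1), -0.58 (H2) and -0.08 (H3). L1 and H1 were thus the highest birds in these markers, as in sterol synthesis. By the sign of the log2 FC, the lists also leaned between the groups. All 10 crypt markers and all 8 tested T-cell markers were below 0. Above 0 were all 4 goblet cell markers, all 5 distal markers, 11 of 15 enterocyte markers and 6 of 7 smooth muscle markers. Of all tested genes, 51.8% were above 0 and 48.2% below. None of these markers passed adjustment in edgeR's test. The part of all these marker lists in the levels of the synthesis genes was not tested.

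**Figure D4:**
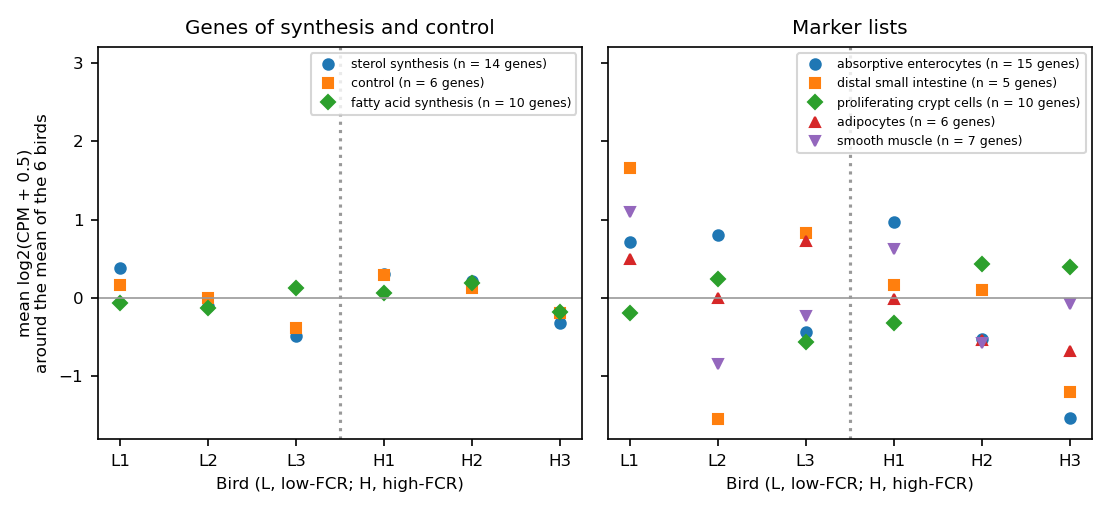
Mean log2(CPM + 0.5) around the mean of the 6 birds for the 3 groups of synthesis genes (left panel) and for 5 marker lists (right panel), low-FCR birds left of the dotted line and high-FCR birds right of it. Sterol synthesis was lowest in L3 and H3 (-0.49 and -0.31), and the marker lists varied over a wider range than the synthesis genes.

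Per exonic length, the mean FPKM of the members over the 6 birds ran from 1.40 for THRSP to 40.6 for MSMO1, with a median of 11.4 over the 30 members and 9.97 over all tested genes. Enzymes of sterol synthesis held the first places, with FDPS at 35.3 and PMVK at 31.3 mean FPKM behind MSMO1. The level of INSIG1 was 31.0 and that of SREBF2 29.9, and SREBF1 had 9.95. At the low end stood ACACA with 3.59, SCD with 1.66 and THRSP. FASN had a mean of 7.37 FPKM despite its high CPM, as FPKM divides by exonic length. The ranges over the birds overlapped in all 31 neighbouring pairs of the 32 genes. Whether neighbours in this order differed within the same birds was not tested.

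**Figure D5:**
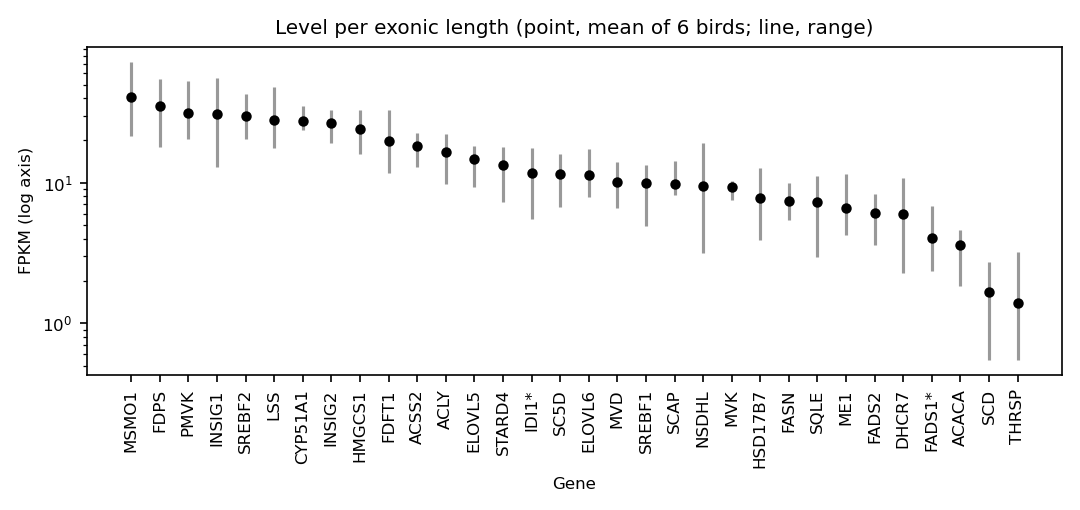
Mean FPKM of each gene over the 6 birds (point) with the lowest and highest bird (line) on a log axis, in order of the mean, with an asterisk for genes found by description. The order runs from MSMO1 at 40.6 to THRSP at 1.40 FPKM, and each range overlaps that of the next gene.

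The other genes of the pathways were taken from 7 lists, of which 84 genes were tested. Of these, 1 had an unadjusted p under 0.05 in edgeR's test, against 3.24% of all tested genes. This was STARD5, a relative of STARD4, with 39.97 (L1), 47.9 (L2) and 50.8 (L3) CPM in low-FCR birds, against 84.7 (H1), 52.9 (H2) and 72.5 (H3) CPM in high-FCR birds (log2 FC -0.60, SE 0.25, 95% interval -1.16 to -0.04, adjusted p = 0.997). The groups did not overlap in STARD5, the low-FCR birds being lower, where 6.36% of all tested genes had no overlap in either direction. GGPS1, which makes geranylgeranyl diphosphate from the same isoprenoids, had a log2 FC of 0.34 (SE 0.22, 95% interval -0.16 to 0.84) with no overlap of the groups. Of the 9 further genes of sterol synthesis, 4 had a log2 FC above 0 and 5 below, with a median of -0.05.

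Among 14 genes of SREBP processing and sterol-regulated protein turnover, 5 had a log2 FC above 0 and 9 below. VCP, an ATPase that extracts ubiquitinated proteins from membranes, had a log2 FC of -0.39 (SE 0.27, 95% interval -0.998 to 0.21) and is Z-linked. Sterol uptake, trafficking and esterification had 14 tested genes, 7 above and 7 below 0. Of the 9 genes of liver X receptors and sterol export, 4 were above 0 and 5 below, and the smallest p was that of ABCG5, a half-transporter that returns sterols to the gut lumen, with a log2 FC of 0.34 (SE 0.56, 95% interval -0.94 to 1.62). ABCG1, an exporter of cholesterol, had a log2 FC of -0.21 (SE 0.62, 95% interval -1.61 to 1.19).

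In the 17 other genes of fatty acid synthesis and elongation, 10 had a log2 FC above 0 and 7 below, with a median of 0.20. MID1IP1, a partner of acetyl-CoA carboxylase and a relative of THRSP, had 451 (L1), 211 (L2) and 187 (L3) CPM in low-FCR birds, against 175 (H1), 151 (H2) and 176 (H3) CPM in high-FCR birds (log2 FC 0.76, SE 0.35, 95% interval -0.039 to 1.55). Its groups did not overlap, as in 6.36% of all tested genes in either direction, and L1 stood above all other birds. MLXIPL, which encodes the carbohydrate-responsive factor ChREBP, had 247 (L1), 149 (L2) and 57.3 (L3) CPM in low-FCR birds, against 86.7 (H1), 79.7 (H2) and 93.5 (H3) CPM in high-FCR birds (log2 FC 0.80, SE 0.45, 95% interval -0.21 to 1.82). In MLXIPL the low-FCR group again held both the highest and the lowest bird. The 9 genes of NADPH and citrate supply had 5 log2 FC above 0 and 4 below, with 0.32 (SE 0.22, 95% interval -0.17 to 0.81) for PGD, a dehydrogenase of the pentose phosphate pathway, and -0.13 (SE 0.28, 95% interval -0.76 to 0.50) for MTHFD1, an enzyme of folate metabolism.

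Of 12 genes of triglyceride and phospholipid assembly, 8 had a log2 FC above 0 and 4 below. PLIN2, the coat protein of lipid droplets, had 62.9 (L1), 164 (L2) and 420 (L3) CPM in low-FCR birds, against 111 (H1), 120 (H2) and 86.3 (H3) CPM in high-FCR birds (log2 FC 1.03, SE 0.57, 95% interval -0.27 to 2.32). CHKA, the first enzyme of phosphatidylcholine synthesis, had 77.7 (L1), 54.6 (L2) and 301 (L3) CPM in low-FCR birds, against 89.1 (H1), 77.001 (H2) and 53.6 (H3) CPM in high-FCR birds (log2 FC 0.98, SE 0.58, 95% interval -0.34 to 2.30). In both genes the higher mean of the low-FCR group came from L3, which was also the highest bird in SCD, THRSP and FADS1. PLIN2 is Z-linked, and its lowest bird was L1, whose Z-linked genes were lower as a whole.

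The 6 adipocyte markers summed to 130 to 244 CPM in low-FCR birds and 133 to 196 CPM in high-FCR birds, with none at 0. Of the 6, 3 had an unadjusted p under 0.05 and no overlap, all higher in low-FCR birds, where 3.24% of all tested genes had such a p and 6.36% no overlap in either direction. FABP4, the fatty acid binding protein of fat cells, had 7.61 (L1), 3.57 (L2) and 21.1 (L3) CPM in low-FCR birds, against 2.96 (H1), 3.402 (H2) and 3.44 (H3) CPM in high-FCR birds (log2 FC 1.72, SE 0.62, 95% interval 0.31 to 3.13). CIDEC, a lipid droplet protein, had 50.1 (L1), 27.4 (L2) and 24.8 (L3) CPM in low-FCR birds, against 24.2 (H1), 10.5 (H2) and 7.23 (H3) CPM in high-FCR birds (log2 FC 1.29, SE 0.49, 95% interval 0.18 to 2.40). LPL, lipoprotein lipase, was the remaining one and is Z-linked, with a log2 FC of 0.88 (SE 0.34, 95% interval 0.099 to 1.65). ADIPOQ, the most abundant of the list, had 165 (L1), 76.5 (L2) and 106 (L3) CPM in low-FCR birds, against 153 (H1), 108 (H2) and 134 (H3) CPM in high-FCR birds (log2 FC -0.18, SE 0.31, 95% interval -0.88 to 0.52). None passed adjustment over all genes in edgeR's test, and the part of these markers in the levels of THRSP, FADS1 and PLIN2, which were likewise higher on average in low-FCR birds, was not tested.

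Leaving out single birds changed the counts of members that separated the groups. The members with no overlap and lower values in low-FCR birds numbered 6 without L1, 6 without H3, 6 when H3 was counted as low-FCR, 4 without L2 and 11 without both L1 and H3, against backgrounds in either direction of 12.5%, 13.9%, 9.71%, 27.4% and 22.9% of all tested genes. Members with no overlap and higher values numbered 3 without L2, 2 without H2 and 1 without H1, where 27.4%, 12.9% and 14.7% of all tested genes had no overlap in either direction. Members at an unadjusted p under 0.05 in edgeR's test, all lower in low-FCR birds, numbered 2 without L2 (STARD4 and ACLY), 2 with H3 regrouped (MSMO1 and STARD4), 1 without H3 (MSMO1) and 1 without both L1 and H3 (MSMO1). The shares of all tested genes at such a p in either direction were 9.91% without L2, 2.18% with H3 regrouped, 2.15% without H3 and 1.72% without both L1 and H3. IDI1, found by description, had a log2 FC of -1.08, also at an unadjusted p under 0.05, in the last of these settings, but -0.15 without L3.

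Single birds also moved the values of members that stayed short of any threshold. With H3 counted as a low-FCR bird, the log2 FC was 0.025 for HSD17B7, -0.62 for FDFT1, -0.61 for INSIG1, -0.25 for FADS2, -1.10 for NSDHL and 0.78 for THRSP. Without L3 it was -0.13 for SQLE, -0.026 for SREBF1, -0.28 for SC5D and 0.82 for THRSP. Leaving out other birds moved these genes the other way. The log2 FC was -0.87 for SQLE and -0.68 for SREBF1 without L1, -0.63 for SC5D without L2 and 1.73 for THRSP without H2. The split of members above and below 0 was 9 and 21 with all birds, 15 and 15 without L3, 14 and 16 without H1 and 13 and 17 without L2.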

How the data were processed

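Jejunal poly(A) RNA of 3 low-FCR and 3 high-FCR birds had been sequenced in paired-end reads. The authors trimmed the reads (Cutadapt 1.9.1), aligned them to the GRCg6a assembly (HISAT2 2.0.1) and assigned them to Ensembl genes (HTSeq 0.6.1). The annotation release and strand setting are not given in the sources used here. The deposited table holds whole-number counts and, computed by the authors, FPKM, which matched count, exonic size and library total for 100% of values above 0, within 1% or 0.005 FPKM. FPKM served for levels per length, for the filter and for an alternative test. Reads carried no molecular identifiers, so the floor of 3 counts covers counting error only.

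Counts were analysed in R 4.3.3 with edgeR 4.0.16, using TMM factors of 0.870 to 1.06, the quasi-likelihood test without covariates and Benjamini-Hochberg adjustment. Tested were the 14282 genes whose FPKM averaged at least 0.5. The standard error was the log2 FC divided by the square root of the F statistic. Alternatives were DESeq2 1.42.0, limma 3.58.1 on log2(FPKM + 0.5) and with a pseudocount of 0.1 or 1, other scalings, no filter, the replicate number as a block, the bird-number series as a covariate, H3 counted as low-FCR and each library left out. The fit without both L1 and H3 was added after the data were seen. The scripts' statistics were tested on simulated data with changes larger than that of any member. That test gives no measure of power for differences of the size seen here. The members and lists were chosen with earlier results of these data known. Every member found is named. Of the other lists, genes at an unadjusted p under 0.05 or, where none, the 2 with the smallest p are named, and adipocyte markers and the genes of the closing observations were named after their values were seen. Some genes that the rule names are not reported here. For 8 of 32 members another gene overlaps the locus. Among these, DDR2 (mean of 205 counts) overlaps 132 bases of HSD17B7 on the same strand. CCDC134 (mean of 274 counts) overlaps 1157 bases of SREBF2, also on the same strand. The birds are separate animals, and no pair of libraries was a duplicate. Promoter and protein sequences were not analysed here.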

Additional observations from a re-analysis of the deposited data

How the results depend on the processing

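Genes past adjustment over all tested genes numbered 0 in the main edgeR fit and in every alternative but DESeq2 (8) and the replicate block (2). No member was past it in any of these fits. The paper's own DESeq2 list also holds genes with a q-value, its adjusted p, under 0.05. Same-numbered birds deviated together with r of 0.185 (L1 and H1), 0.174 (L2 and H2) and 0.00539 (L3 and H3). Differently numbered birds had r of -0.263 to 0.109, so L1 with H1 and L2 with H2 were the highest of all pairs. The study describes no pairing, and the main test did not pair the birds. The replicate block, which does, left 0 members at an unadjusted p under 0.05 in edgeR's test. Members lower at an unadjusted p under 0.05 numbered 2 with H3 counted as low-FCR, 1 without both L1 and H3 and 0 to 2 with single libraries left out, and of the 30 by symbol 0 were higher in all. Members without overlap and lower numbered 1, against 6 with H3 regrouped, 11 without both L1 and H3 and 1 to 6 with single libraries left out, and those higher 0 to 3. The shares of all tested genes without overlap, in either direction, were 6.36%, 9.71% with H3 regrouped, 22.9% without both L1 and H3 and 12.5% to 27.4% with single libraries left out. Members above and below 0 were 9 and 21 in the main fit and 6 and 24 with library totals. With limma at a pseudocount of 0.5 they were 7 and 23. They were 13 and 17 without L2, 14 and 16 without H1, 15 and 15 without L3 and 12 and 18 without H2. Leaving out L1, H3 or both gave 7 and 23 each time, and counting H3 as low-FCR gave 8 and 22. The median log2 FC of all genes was 0.02 in the main fit and -0.08 with library totals. With limma it was -0.09 at a pseudocount of 0.5 and -0.10 at 0.1. That of the members was -0.09 in the main fit and -0.17 with library totals, and with limma -0.21 and -0.23. The values of all genes thus shifted down along with those of the members under library totals and limma.

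The sign of a log2 FC turned in 65 values, in 18 genes, and held in 479. Without both L1 and H3 it was 0.078 for ACACA, -0.16 for FADS2, -0.31 for LSS, -0.38 for MVD, 0.010 for MVK, -0.14 for PMVK, 0.029 for SCD and -0.44 for SREBF2. With the replicate block it was 0.015 for ELOVL6, 0.11 for ME1, -0.070 for MVD and -0.0052 for SREBF2. The bird-number series set H2 and H3, both high-FCR, apart from the other birds. With it as a covariate, the low-FCR birds were compared with H1 alone. The log2 FC was then 0.16 for ELOVL6, -0.31 for FADS2, -0.0095 for MVD and 0.43 for SCD. With H3 counted as low-FCR it was -0.25 for FADS2, -0.19 for INSIG2, 0.00097 for MVK, 0.11 for SCD and -0.040 for SREBF2. With library totals only it was -0.035 for INSIG2, -0.096 for MVD and -0.038 for SREBF2. With limma on log2(FPKM + 0.5) it was -0.041 for INSIG2, 0.0066 for ME1, -0.16 for MVD and -0.095 for SREBF2. With a pseudocount of 0.1 it was -0.041 for INSIG2, 0.015 for ME1, -0.16 for MVD and -0.098 for SREBF2. With a pseudocount of 1 it was -0.040 for INSIG2, -0.15 for MVD and -0.093 for SREBF2. Leaving out each library in turn gave -0.39 to 0.16 for ACACA, -0.16 to 0.14 for CYP51A1, -0.65 to 0.19 for DHCR7, -0.28 to 0.096 for ELOVL5, -0.26 to 0.31 for ELOVL6, -0.081 to 0.48 for FADS2, -0.49 to 0.18 for FDFT1, -0.69 to 0.32 for FDPS, -0.44 to 0.085 for HMGCS1, -0.50 to 0.25 for INSIG1, -0.10 to 0.20 for INSIG2, -0.14 to 0.73 for LSS, -0.26 to 0.58 for ME1, -0.45 to 0.24 for MVD, -0.26 to 0.61 for PMVK, -0.86 to 0.16 for SCD and -0.38 to 0.35 for SREBF2. The cause was not tested, and the 3 birds in each group limit the precision of all of these values.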

Other observations

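Some genes around sterol and lipid handling varied widely between birds of the same group. SCARB1, a receptor for lipoprotein cholesterol, had 1054 (L1), 1075 (L2) and 149 (L3) counts in low-FCR birds, against 1413 (H1), 514 (H2) and 349 (H3) counts in high-FCR birds. ABCA1, which exports cholesterol to apolipoproteins, had 13 (L1), 128 (L2) and 372 (L3) counts in low-FCR birds, against 84 (H1), 322 (H2) and 132 (H3) counts in high-FCR birds. L3 was thus the lowest bird of SCARB1 and the highest of ABCA1. ABCA1 is Z-linked, and its lowest bird was L1, whose Z-linked genes were lower as a whole.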
